A study of Drosophila melanogaster with 2 samples.

Results

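Insulator proteins divide chromatin into domains that are regulated apart from each other, and promoter-binding proteins mark the start sites of broadly expressed genes. The genes described here encode 10 such proteins of Drosophila melanogaster, taken by name: Cp190, Chro, M1BP, Dref, BEAF-32, CTCF, su(Hw), mod(mdg4), pita and ZIPIC. They are 10 of 13945 protein-coding genes on the 6 chromosome arms. The question was where the listed binding sites of CG8388 fell relative to these genes and their transcription start sites (TSSs).

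In flies, many boundary proteins bind DNA through zinc fingers and recruit shared cofactors through protein contacts. BEAF-32, CTCF, Su(Hw), Pita and ZIPIC are of the DNA-binding kind, while CP190, Chromator (the Chro product) and Mod(mdg4) act as cofactors. M1BP and DREF bind core promoter elements, motif 1 and the DNA replication-related element (DRE), that are common at housekeeping genes and also lie at many domain borders.

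Sites of CG8388 were mapped by ChIP-seq, the sequencing of DNA fragments that come down with an antibody to a chromatin protein. The chromatin came from whole embryos of both sexes, aged 0 to 14 h, of a transgenic line that makes CG8388 with GFP at its C-terminus; it was sonicated to 200 to 800 bp and precipitated with an antibody against GFP. The 2 libraries, biological replicates 2 and 3, form 1 group, and both carry the fusion. The deposited peaks were called with a control alignment, but libraries from untagged embryos, mock precipitations or input DNA were not analysed here. Occupancy by CG8388 and signal independent of it therefore cannot be told apart. Whole embryos also mix all cell types, and what drives the fusion gene is not given in the labels.

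A peak is described by its summit (the position of highest signal) and by its rank on the authors' signal value, where rank 1 is the highest in a list. Each replicate list and a pooled list hold 30000 peaks, and a thresholded list holds the 6075 peaks that the authors kept by irreproducible discovery rate. The thresholded peaks of these genes had the same rank in the pooled list. The lowest signal value inside the thresholded list and the highest outside it were both 134. The thresholded list thus follows pooled signal rank, and a place in it does not show that a peak ranked alike in both replicates. A promoter summit is one within 500 bp of any TSS of a gene. The lists carry no read totals, so depth is unknown and signal values of different lists are not on a shared scale.

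Of the 10 genes, 7 had a thresholded promoter summit, against 20.4% of all protein-coding genes. They were Chro, Cp190, M1BP, Dref, BEAF-32, pita and su(Hw). In the pooled list 8 genes had a promoter summit, with mod(mdg4) added, against 47.0% of protein-coding genes. In replicate 2 the same 7 genes as in the thresholded list did, against 43.8%, and in replicate 3 all 10 did, against 52.3%. The genes were proposed with earlier results of these data known, so these counts are a description and no test is given.

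High rank was held by a few of the genes only. Chro, Cp190 and M1BP, 3 of 10, had a promoter summit among the highest 607 thresholded peaks, where 3.11% of protein-coding genes had one. A peak inside mod(mdg4), away from its TSS, was also among these peaks, at rank 581. BEAF-32, at rank 2579, was close to the median rank of 2717 over all 2249 thresholded promoter summits. Dref, at rank 1435, was above it, and pita and su(Hw) were below it. CTCF and ZIPIC had no summit in the thresholded, pooled or replicate 2 lists.

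**Figure D1:**
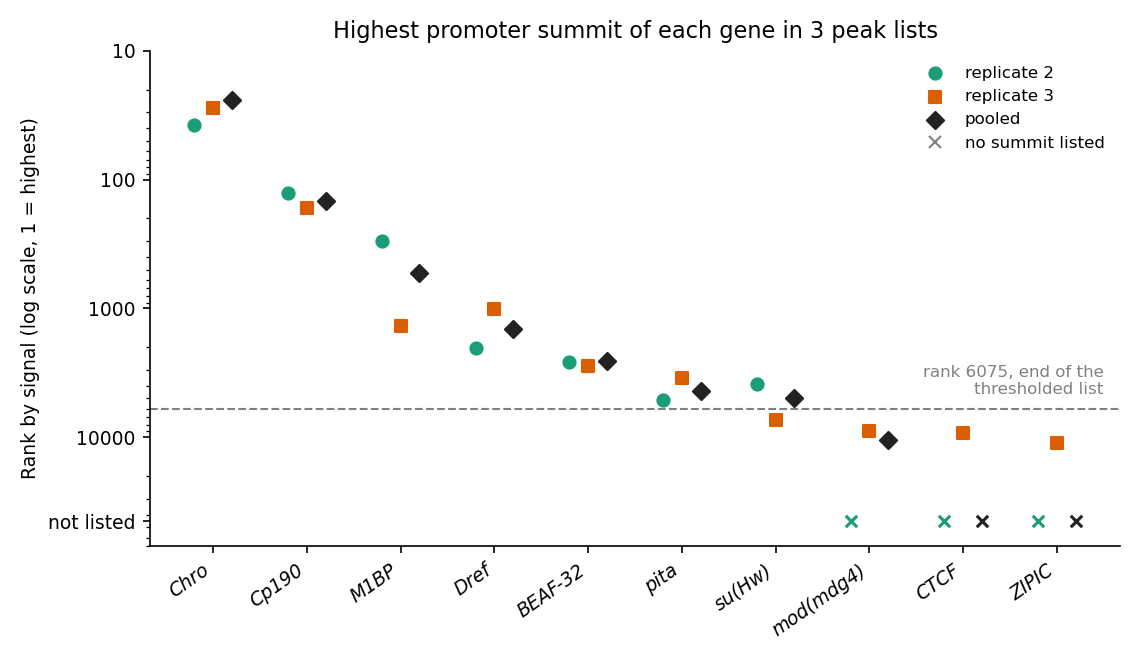
Rank of the highest promoter summit of each gene (y axis, log scale, 1 at the top) in the replicate 2, replicate 3 and pooled lists; crosses mark genes with no promoter summit listed, and the dashed line is the end of the thresholded list. Chro and Cp190 keep close ranks in both replicates, M1BP differs most between them, and CTCF and ZIPIC appear in replicate 3 only.

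The sequence at the summits is shown for the 6 genes whose peaks carry the description, since the summits differ in which short motifs they hold. Each was read from RefSeq Release 6 (dm6) on the minus strand, which is the coding strand of all these genes, within 50 bp of the summit, and shortened where it meets or lies within annotated untranslated exons. Of the 9 consensus motifs searched on both strands, those found are in capitals: CGATA (the element bound by BEAF-32, TATCG on the other strand), TATAAA (the TATA box, TTTATA on the other strand), TGCATA (the Su(Hw) core, TATGCA on the other strand) and TATCGATA (the DRE). The DRE contains CGATA on both strands.
Cp190, chr3R:15275343-15275443: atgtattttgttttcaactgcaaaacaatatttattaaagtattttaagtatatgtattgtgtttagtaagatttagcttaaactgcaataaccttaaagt
Chro, chr3L:22878884-22878913: tgcagttagtttaaagcTATCGacaggcaa
M1BP, chr3R:8731791-8731891: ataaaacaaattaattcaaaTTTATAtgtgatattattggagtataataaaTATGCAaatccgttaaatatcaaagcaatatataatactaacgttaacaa
Dref, chr2L:9967250-9967312: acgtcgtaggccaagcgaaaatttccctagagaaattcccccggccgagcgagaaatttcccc
su(Hw), chr3R:14308868-14308968: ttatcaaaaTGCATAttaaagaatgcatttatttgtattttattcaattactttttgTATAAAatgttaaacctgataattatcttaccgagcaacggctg
mod(mdg4), internal summit, chr3R:21365428-21365457: ttattagtaccaataccaaTATGCATAttt
mod(mdg4), own start (pooled list), chr3R:21377402-21377500: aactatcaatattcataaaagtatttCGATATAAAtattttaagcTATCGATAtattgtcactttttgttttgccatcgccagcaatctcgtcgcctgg
The Cp190, M1BP and su(Hw) stretches are made mostly of A and T, while the Dref stretch holds runs of C and G. The M1BP stretch is from the higher of its 2 thresholded summits.

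Among the cofactor genes, Chro had the highest peak. Chromator is a chromodomain protein of interbands and domain borders. Its gene (FBgn0044324, 3L from 22873702 to 22878984, minus strand) has 3 TSSs, and the thresholded peak from 22878705 to 22879104 had rank 24 and a signal value of 2630. In replicate 2 it ranked 38 with a signal value of 1280, and in replicate 3 it ranked 28 with 1360. The replicates placed it alike, at a mean rank of 33.0 ± 7.07 (SD, n = 2), with summits 21 bp apart. The thresholded summit lay 81 bp inside the outermost TSS, in the 5' UTR, and 135 bp upstream of the next TSS. A weak summit at the innermost TSS ranked 19552 in the pooled list and 21068 in replicate 3, and replicate 2 listed none.

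Cp190 encodes the zinc finger and BTB domain protein that most boundary proteins recruit. The gene (FBgn0000283, 3R from 15270432 to 15275241, minus strand) had 1 peak in every list, from 15275189 to 15275591 in the thresholded one, with rank 147 and a signal value of 1370. The replicates again ranked it closely, at 128 in replicate 2 (signal value 746) and 166 in replicate 3 (signal value 623), a mean of 147 ± 26.9 (SD, n = 2). The summit lay 152 bp upstream of the nearer of its TSSs, and no list held a summit inside the gene.

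mod(mdg4) differed from the other genes in where its peak lay. It encodes a family of BTB domain proteins, a gypsy insulator component among them, whose alternative last exons are joined by trans-splicing from separately transcribed precursors. The gene (FBgn0002781, 3R from 21350846 to 21377401, minus strand) is the longest of the 10 at 26.6 kb, and its 22 annotated transcripts share 1 TSS. These are the Ensembl models; RefSeq gives the same outer limits as 5 separate segments, 3 on the minus and 2 on the plus strand, and the summit described next falls in a minus-strand segment from 21362188 to 21365488. The only thresholded peak of mod(mdg4), from 21365255 to 21365602, was intronic in the Ensembl models and lay 11954 bp downstream of that TSS, so it is not counted among the promoter summits. It ranked 581 with a signal value of 684, and in the replicates 428 (replicate 2, 418) and 906 (replicate 3, 259), with a mean rank of 667 ± 338 (SD, n = 2).

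That internal summit sat beside start sites of a different kind. The annotation holds 23 precursor units named pre-mod(mdg4) with 7 distinct start sites. The summit was 41 bp inside the start of pre-mod(mdg4)-E on the minus strand. It was 157 bp upstream of the start shared by 3 minus-strand units (AB, C and E) and 162 bp upstream of the start shared by 7 plus-strand units (AD, AE, U, V, W, X and Y), which runs the opposite way. The TATGCATA in its printed stretch is the Su(Hw) core on both strands, overlapping itself.

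Further summits along mod(mdg4) were lower in rank. A pooled summit of rank 7423, at 7101 in replicate 2 and 7263 in replicate 3, lay 157 bp upstream of the start shared by the AA, N and O units, 3.67 kb into the gene. A pooled intronic summit of rank 6647 lay 1.01 kb into the gene, and replicate 3 ranked it 3125 while replicate 2 listed none there. At the gene's own TSS the pooled list held a summit of rank 10469, 49 bp upstream. Replicate 3 ranked that one 8934 and replicate 2 did not list it. Its window holds a complete DRE that spans the summit, from 5 bp before it to 2 bp after it. Of the 7 precursor starts, 3 had a summit within 500 bp in the thresholded list, 4 in the pooled list, 4 in replicate 2 and 6 in replicate 3. Since starts close together share a summit, these came from 1 summit in the thresholded list, 2 in the pooled list, 3 in replicate 2 and 4 in replicate 3.

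**Figure D2:**
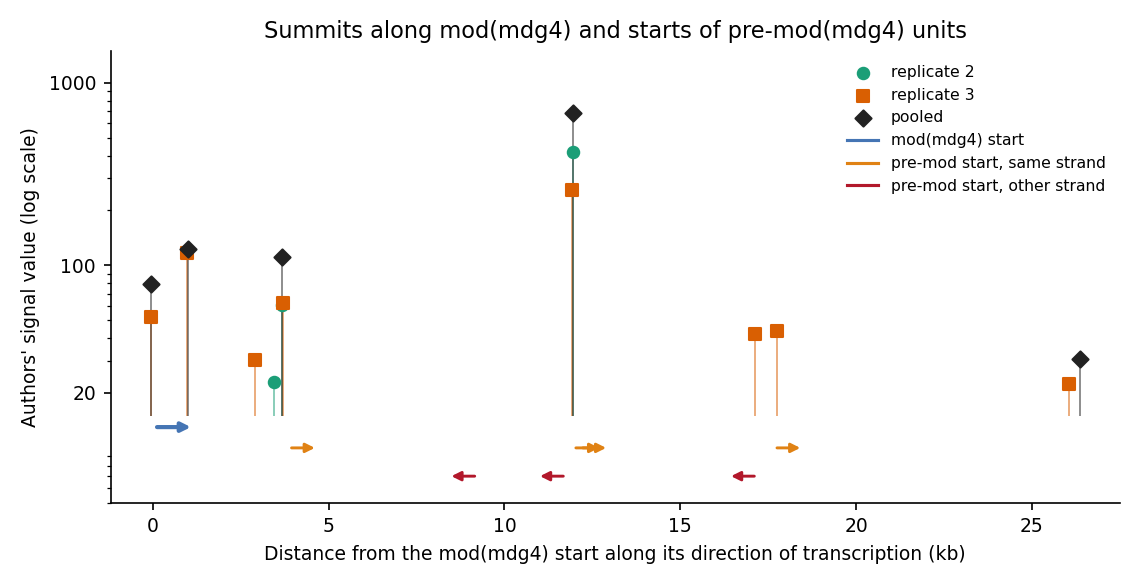
Summits along mod(mdg4), by distance from its TSS in the direction of transcription (x axis, kb) and authors' signal value (y axis, log scale), in the replicate 2, replicate 3 and pooled lists; arrows below mark the TSS and the precursor starts on each strand. The highest summit lies 11954 bp into the gene in the pooled list, 11951 bp in replicate 2 and 11923 bp in replicate 3, where precursor starts on both strands meet. Signal values of different lists are not on a shared scale.

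Of the promoter-binding genes, M1BP had the higher peak and the less steady one. M1BP is the zinc finger protein that binds core promoter motif 1. Its gene (FBgn0037621, 3R from 8729790 to 8731698, minus strand) had 1 thresholded interval, from 8731664 to 8732143, with 2 summits. The higher summit, 143 bp upstream of the TSS, ranked 530 with a signal value of 719, and the other, 358 bp upstream, ranked 1335 with 427. Replicate 2 showed a single summit between these positions, 244 bp upstream, at rank 297 (signal value 521). Replicate 3 split the interval into summits at rank 1363 (signal value 205) and rank 11257 (42.2). The leading ranks of the replicates differed 4.59-fold, the widest ratio of the 9 thresholded peaks of these genes, for a mean of 830 ± 754 (SD, n = 2), and their summits were 81 bp apart.

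Dref encodes the DRE-binding factor. The gene (FBgn0015664, 2L from 9964147 to 9967229, minus strand) had a thresholded peak from 9967194 to 9967467 at rank 1435, with a signal value of 408. Replicate 2 ranked it 2020 (signal value 172) and replicate 3 ranked it 1018 (signal value 242), a mean of 1519 ± 709 (SD, n = 2), with summits 10 bp apart. The summit lay 71 bp upstream of the TSS. Replicate 3 alone also listed a promoter summit at rank 12919 and a summit in a coding exon at rank 23489.

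Among the genes of DNA-binding boundary proteins, BEAF-32 ranked first. BEAF-32 binds clusters of CGATA. The gene (FBgn0015602, 2R from 14770469 to 14772630, plus strand) has 3 TSSs, and the thresholded summit lay 72 bp upstream of the outermost one, at rank 2579 with a signal value of 274. Replicate 2 ranked it 2623 (signal value 141) and replicate 3 ranked it 2811 (signal value 127), the closest ratio of the 9 peaks at 1.07, although the summits were 78 bp apart. A second summit, near the innermost TSS, ranked 7017 in the pooled list, 7769 in replicate 2 and 5484 in replicate 3, and did not reach the thresholded list.

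The gene of Pita, a zinc finger protein of boundaries that recruits CP190, had a thresholded summit at each of its TSSs. The gene (FBgn0034878, 2R from 23548967 to 23554712, minus strand) had 1 summit 341 bp inside the TSS at 23551551, at rank 4379 with a signal value of 178. That peak ranked 6246 in replicate 2 (signal value 68.7) and 3481 in replicate 3 (signal value 109). The other summit, 48 bp inside the TSS at 23554712, had rank 5497 and a signal value of 148, with rank 5122 in replicate 2 (signal value 83.3) and 8470 in replicate 3 (signal value 54.7). The replicates put these peaks in opposite order, so which of the TSSs had the higher peak was not settled by the 2 libraries.

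su(Hw) encodes the zinc finger protein that binds the gypsy insulator. Its gene (FBgn0003567, 3R from 14304455 to 14308589, minus strand) had a thresholded summit 329 bp upstream of its TSS at rank 4990, with a signal value of 160. Replicate 2 ranked it 3888 (signal value 106) and replicate 3 ranked it 7377 (signal value 61.4), which is outside the highest 6075 of that list. A lower pooled summit, at rank 14265, lay 468 bp inside the gene and still within the 500 bp window. Replicate 2 had a summit there 461 bp inside, at rank 22801. Replicate 3 had one 515 bp inside, at rank 16579 and outside the window, and another 314 bp inside, at rank 20659 and within it.

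CTCF and ZIPIC had summits in replicate 3 only. CTCF encodes the fly homologue of the vertebrate insulator protein (FBgn0035769, 3L from 7353578 to 7356713, minus strand). Its summits ranked 9210 (97 bp inside the TSS, in the 5' UTR), 24806 (105 bp upstream) and 23564 (in a coding exon). ZIPIC, which encodes another CP190-recruiting zinc finger protein (FBgn0039740, 3R from 30035240 to 30036870, minus strand), had a summit of rank 11083 that lay 27 bp upstream of the TSS. With 1 library listing each of these summits and the other not, the lists do not show whether CG8388 was at either promoter.

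Between replicates, the 9 thresholded peaks of these genes were about as steady as thresholded promoter peaks at large. The 9 include the mod(mdg4) peak, which is not at its promoter. All 9 overlapped a peak in both replicate lists, as did 96.8% of the 2223 thresholded promoter peaks. Thresholded peaks are those of high signal in a pooled list derived from these same replicates, so this overlap was largely set by that choice. The median distance between replicate summits was 21.0 bp for these genes and 26.0 bp for all thresholded promoter peaks, and the median ratio of the replicate ranks was 1.79 for these genes and 1.57 for all. In 6 of the 9 peaks both replicates ranked the peak within their highest 6075, and in 6 of 9 the rank was higher in replicate 2. The lowest member of the thresholded list was the pita summit of rank 5497, and the nearest summit outside it was the mod(mdg4) intronic one of rank 6647.

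Most of the promoters were shared, so that a summit there cannot be given to 1 gene. Of the 7 genes with a thresholded promoter summit, 6 had it within 500 bp of a TSS of another protein-coding gene, where 57.6% of the 2839 protein-coding genes with such a summit did. The seventh, BEAF-32, shared it with an antisense RNA gene, asRNA:CR42254, whose TSS lay 127 bp from the summit. In 5 of the 6 the other gene was transcribed away from the member on the opposite strand. In pita only the summit at the inner TSS was shared, and no other gene had a TSS within 500 bp of the outer summit.

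The partners included general expression genes. Dref shared its summit with RpL13, which encodes a protein of the large ribosomal subunit, and the summit was 13 bp from the RpL13 TSS and 71 bp from that of Dref. su(Hw) shared with Polr2I, a subunit gene of RNA polymerase II, at 171 bp, against 329 bp to su(Hw) itself. Chro shared with Ssl1, a subunit gene of the general factor TFIIH, at 186 bp, and here the summit was nearer to Chro, at 81 bp. The start sites of Dref and RpL13 are 84 bp apart, those of Chro and Ssl1 105 bp and those of su(Hw) and Polr2I 500 bp.

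Cp190 shared its summit with CG4338, whose TSS lay 129 bp away, against 152 bp to the Cp190 TSS. The 2 summits of M1BP were split between the genes: the higher lay 143 bp from the M1BP TSS and 250 bp from that of CG8202, and the lower lay 358 bp from M1BP and 35 bp from CG8202. Dcp-1, a caspase gene on the opposite strand, starts 238 bp downstream of the inner pita TSS. The summit was 103 bp from the Dcp-1 TSS and 341 bp from that inner pita TSS. Over the 8 pairs of summit and neighbour, 6 summits lay between the TSSs and 5 were nearer to the neighbour. When each summit was given to the gene of the nearest TSS only, Chro, M1BP, BEAF-32 and pita remained, 4 of 10, against 15.1% of protein-coding genes.

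**Figure D3:**
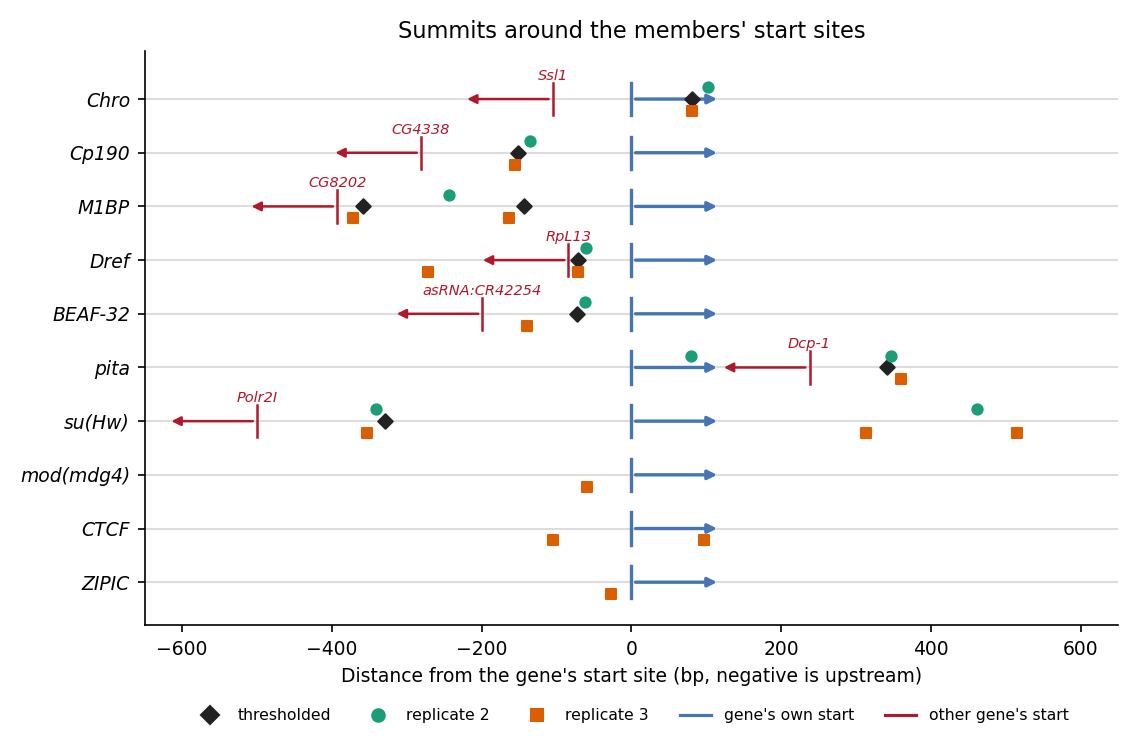
Summits in the thresholded, replicate 2 and replicate 3 lists around a TSS of each gene (x axis, bp along the gene's direction, TSS at 0, negative is upstream), with the TSS of the gene that shares the thresholded summit. Genes are drawn from the TSS nearest to their highest thresholded promoter summit, so the outer TSS of pita and its summit are off the plot. mod(mdg4), CTCF and ZIPIC have no such summit and are drawn from their only TSS. Thresholded summits of Cp190, M1BP, Dref, BEAF-32 and su(Hw) lie between the drawn starts.

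Thresholded summits inside the genes numbered 4, in 3 of the 10 genes (Chro, mod(mdg4) and pita), where 13.7% of protein-coding genes held one. Those of Chro and pita are the promoter summits given above, so the only one beyond a promoter was the mod(mdg4) summit. In the pooled list 11 summits lay inside the genes, with 8 in replicate 2 and 19 in replicate 3. Since long genes hold more summits, the pooled density is given as well, beside 0.206 per kb over all protein-coding genes. It was 0.522 per kb in pita, 0.463 in BEAF-32, 0.379 in Chro, 0.242 in su(Hw) and 0.151 in mod(mdg4). Cp190, M1BP, Dref, CTCF and ZIPIC held no pooled summit inside the gene. The genes other than mod(mdg4) are 1.63 to 5.75 kb long, so 1 summit moves their density widely.

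Windows of 101 bp were searched at the 10 thresholded summits of these genes, and 5 had no match for any of the 9 motifs: those of Cp190, Dref and BEAF-32 and both of pita. Of the 2249 windows at thresholded promoter summits, 43.3% had none, so that count is near the background. With 100 bp on each side, 9 of the 10 windows held a match, as did 81.9% of all promoter summit windows of that length. At 101 bp none of the 10 held the DRE or the motif 1 core, which are rare at promoter summits as well. The BEAF-32 element CGATA was at Chro, 7 to 11 bp from the summit, and in 17.3% of the 2249 windows at thresholded promoter summits, against 12.5% of 4498 windows of the same length centred 400 bp to each side. The Su(Hw) core TGCATA was at M1BP, su(Hw) and mod(mdg4), and in 7.43% of promoter summit windows against 4.47% of the flanking ones. The TATA box TATAAA was at M1BP and su(Hw), and in 26.9% against 9.54%. An E-box, CAGCTG, was at the second summit of M1BP, and in 3.65% against 5.16%.

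Of the remaining motifs, the DRE TATCGATA was in 2.18% of promoter summit windows against 0.556% of flanking ones, and the motif 1 core GGTCACAC in 1.29% against 0.689%. The GAGA motif GAGAG was in 7.38% against 13.6%, the CTCF core AGGNGGC in 1.51% against 4.96%, and the A/T-only 8-mer ATTTAAAA, which earlier work on these data had picked, in 8.18% against 2.05%. Among the lower-ranked summits, that of ZIPIC held 2 CGATA sites, the pooled mod(mdg4) summit 1.01 kb into the gene held overlapping GAGAG sites, and CTCF summits held no match. A match here is a run of letters and not a measured site.

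Low GC content at the summit was the more common property. It was between 18.8% and 48.5% in the 10 windows, with a median of 31.2%, and 9 of 10 were below the mean of their own flanks. Over all thresholded promoter summits it was 31.8% ± 10.1 (SD over 2249 windows), against 45.0% ± 10.5 in the 4498 flanking windows, and 83.6% were below their flanks. The higher M1BP summit had the lowest value, 18.8% against 49.5% in its flanks. The other M1BP summit, in the same interval, had 46.5% against 46.5% and was the 1 window not below its flanks. Cp190 had 21.8% against 54.0% and su(Hw) had 24.8% against 44.6%. Chro, which had the highest peak, had 31.7% against 33.7%, and Dref had 48.5% against 54.0%. The order of these few genes by GC content was thus not their order by rank. The longest run of A and T alone had a median of 11.0 bp both in the windows of these genes, where it was 5 to 19 bp, and over all promoter summits, against 7.0 bp in flanks.

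**Figure D4:**
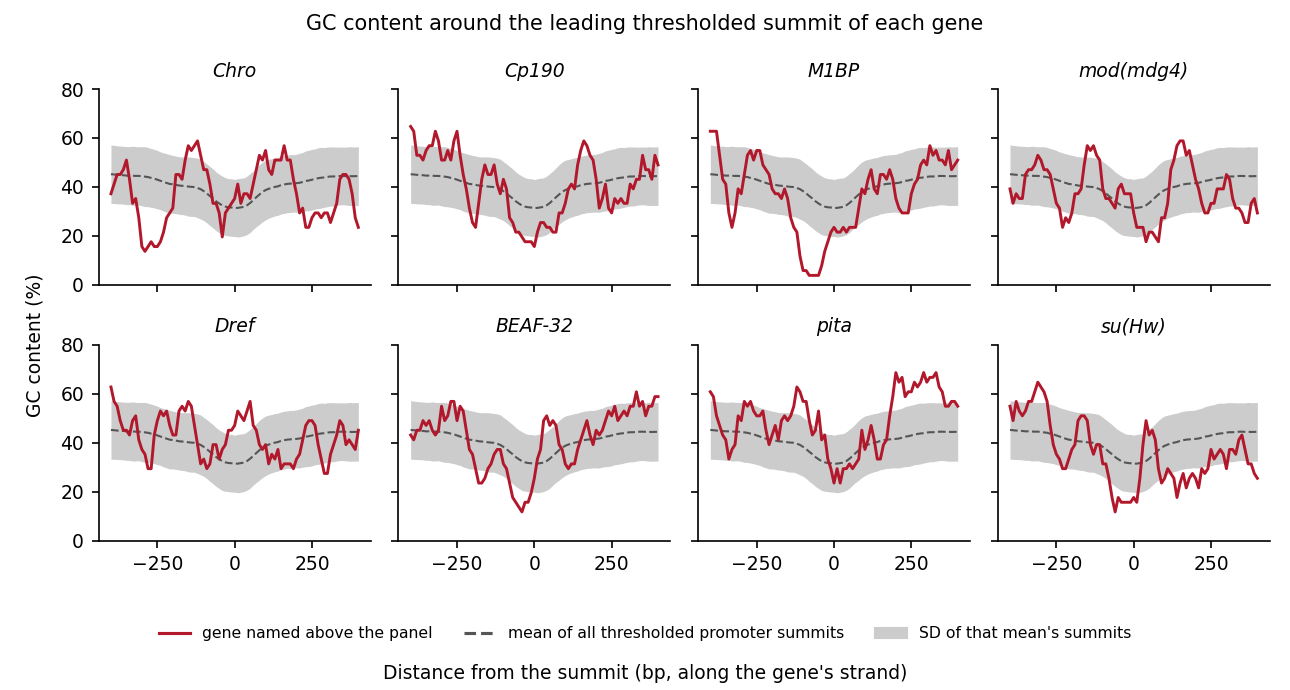
GC content (y axis, percent, in sliding 51 bp windows) by distance from the leading thresholded summit (x axis, bp) of 8 genes, in red, with the mean (dashed) and SD (grey) over all thresholded promoter summits. The mean dips at the summit, and Cp190, M1BP, BEAF-32, su(Hw), mod(mdg4) and pita are below it there. Chro falls below it upstream of the summit, and Dref stays above it there.

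A companion list of 25 other genes for boundary, cohesin and promoter proteins gives the wider pathway. Of these, 7 had a thresholded promoter summit, or 28.0%, against 20.4% of all protein-coding genes. A pooled one was held by 16, or 64.0%, against 47.0%. In replicate 2 there were 15, or 60.0%, against 43.8%, and in replicate 3 there were 18, or 72.0%, against 52.3%. The highest was woc, a zinc finger protein gene, at rank 46 (30 in replicate 2 and 72 in replicate 3). It was followed by shep, whose RNA-binding product is known to modulate gypsy insulator activity in neurons, at rank 93 (94 in replicate 2 and 119 in replicate 3). These were the only companions among the highest 607 peaks, 2 of 25, where 3.11% of protein-coding genes had a promoter summit.

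The other companions lay further down. Trl, which encodes GAGA factor, ranked 1505, and the BTB domain protein genes lolal and psq ranked 1753 and 2540. Genes of known partners of Chromator were near the end of the list: pzg (the gene of Z4) ranked 5885, with 4438 in replicate 2 and 6314 in replicate 3, and JIL-1, a histone H3 kinase gene, ranked 5968, with 5887 in replicate 2 and 6583 in replicate 3. The GAGA-binding zinc finger gene Clamp had a pooled summit of rank 6697 outside the thresholded list. The cohesin gene SMC1 had a promoter summit in replicate 3 only, at rank 5787. The insulator protein gene dwg and the cohesin loader gene Nipped-B had no promoter summit in any of the 4 lists. Of the 7 companions, 2 shared their thresholded promoter with another protein-coding gene, lolal with CG10914 and pzg with CG12974. Among all 2839 protein-coding genes with such a summit, 57.6% did.

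The genes next in rank to the 4 members with the highest promoter summits were of many kinds. Chro was the seventeenth promoter peak of the thresholded list, between ph-p, a Polycomb group gene (rank 23), and mRpL41, a mitochondrial ribosomal protein gene (rank 25). Cp190 lay between elav, a neuronal RNA-binding protein gene (rank 145), and l(2)gd1 (rank 150). M1BP lay between amon, a prohormone convertase gene (rank 529), and CG42394 (rank 532), and Dref between CG34038 (rank 1433) and CG14435 (rank 1436). The gene of CG8388 itself had a promoter summit of rank 5406, also 111 bp from the TSS of CG8389, with ranks of 6260 in replicate 2 and 5931 in replicate 3.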

How the data were processed

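ChIP-seq peak lists of 2 libraries of 1 group were used: 1 per replicate, 1 pooled and 1 thresholded by irreproducible discovery rate, all narrowPeak on dm6 and called with a control alignment, per the file headers and notes deposited with them. Neither the aligner, the caller nor the rate threshold is stated in the labels or notes. The authors deposited a signal value on an unstated scale, used only for ranks within a list, and a −log10 q-value, at its highest in 4269 thresholded peaks. The deposited p-value score is −1 throughout and was not used.

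Summits were the peak start plus the offset column. Genes came from Ensembl release 115 without transposable elements, and 9 of the 10 have the same coordinates in RefSeq. Peaks were matched between lists by at least 1 bp of overlap. The members, companion genes, motifs and rules were chosen with earlier results of these data known. Named genes were the members, genes sharing their thresholded promoter summits, the rank neighbours of the 4 highest, companions with a thresholded promoter summit and 4 without, and CG8388. Alternatives varied the window, list, ranking, assignment and replicate. Scripts ran in Python 3.11.15 with numpy 2.4.6 and pandas 2.3.3 and were tested on simulated peaks.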

Additional observations from a re-analysis of the deposited data

How the results depend on the processing

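The count of genes with a thresholded promoter summit was 7. It was 5 to 8 in the other settings, except that it was 4 when only the nearest TSS counted (beside 15.1% of protein-coding genes). The share of protein-coding genes moved with the setting too, so these counts do not have a common background. With a 250 bp window 6 stood beside 15.9%, and with a 1000 bp window 7 stood beside 24.1%. In the pooled list 8 stood beside 47.0%. With only the upper ranks of the thresholded list, 5 stood beside 1670 of the 13945 protein-coding genes. The member count was 6 to 7 when the leading 6075 peaks of 1 replicate alone were used, with su(Hw) lost without replicate 2. Counting the precursor starts for mod(mdg4), an alternative chosen after seeing the data, gave 8. Summits inside the genes numbered 4, and 13 with 1000 bp added on each side, 11 in the pooled list and 2 to 5 with 1 replicate alone. The median promoter rank of 1435 was 2135 by q-value, where ties share a mean rank, and 1363 to 2020 with 1 replicate alone. By single gene, M1BP had rank 1363 without replicate 2 and 297 without replicate 3. Companion genes with a summit numbered 7, and 16 in the pooled list, beside 47.0% of protein-coding genes there. With 1 replicate alone they numbered 6 without replicate 2 (beside 21.3%) and 7 without replicate 3 (beside 20.3%). Windows with a motif numbered 5 of 10, 9 at 100 bp to each side and 6 with either replicate alone. The cause of these changes was not tested beyond what each setting alters by construction. Ranking by the p-value column was not run because it holds −1 throughout. No paired analysis was possible because there is 1 group. The lists hold no read totals, so depth sets no limit that can be stated here.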
